A study of Mus musculus with 15 samples.

Results

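The response of mouse hepatocytes to DDC was read from 6 of the 15 RNA-seq libraries of the series, 3 of DDC hepatocytes and 3 of untreated hepatocytes. Members were all genes that reached 1 TPM in 3 or more libraries of the series, 13905 of the 24493 genes in the deposited table. DDC is a dihydrocollidine compound that is mixed into chow and injures the liver. DDC hepatocytes were sorted straight from livers of mice that received AAV-TBG-Cre at 4 weeks of age and ate DDC chow for 4 weeks beginning at 5 weeks of age. Untreated hepatocytes were sorted from mice that received the same virus and no DDC, so both groups carry the Cre label. The virus drives Cre from the promoter of the thyroxine-binding globulin gene, which is active in hepatocytes. The other libraries, 3 each of DDC biliary cells, untreated biliary cells and DDC reprogrammed cells, entered the fit and are used below only where named. Strain, sex, sort markers and whether replicates came from separate animals are not given in the labels, so the spread behind each p-value is that between libraries and may be technical.

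As background, DDC feeding leads to inhibition of ferrochelatase, the enzyme that inserts iron into protoporphyrin to make heme. Protoporphyrin then accumulates, forms plugs in bile ducts and causes cholestatic injury with a ductular reaction, and hepatocytes form keratin aggregates called Mallory-Denk bodies. Hepatocytes make bile acids, plasma proteins and glucose, clear drugs and toxins, and in male rodents follow a pattern of gene expression set by pulses of growth hormone through the transcription factor STAT5B.

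Values are TPM divided by 1 scale factor per library (scaled TPM), and TPM values hold no counts, so library depth is not known. Log2 differences are DDC minus untreated hepatocytes on log2(scaled TPM + 1), where changes of genes with low levels come out too small. A gene is said to have risen, fallen or been called where the log2 difference was at least 1 in size and limma's Benjamini-Hochberg adjusted p lay under 0.05. Of the 13905 genes, 917 rose (6.59%) and 615 fell (4.42%), and the median log2 difference over all of them was 0.01. Without the scale factors the median gene lay at 0.17 and the split was 1036 higher and 360 lower, so directions are given relative to the median gene. The groups did not overlap in 39.0% of all genes and in 1501 of the 1532 called ones. Each gene list below is set beside these shares, and its count covers the members that passed the expression filter.

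The sorted cells carried the transcripts that define hepatocytes. The summed level of hepatocyte-defining markers was 84114, 151282 and 163027 scaled TPM in DDC libraries 1, 2 and 3 and 172440.3, 154926 and 176409 in the untreated ones, so DDC library 1 was the lowest. Of the 12 such markers 5 fell and 0 rose. Between 10751 and 11088 genes reached 1 TPM in DDC libraries, against 10231 to 10432 in untreated libraries. Mir6236, annotated as a microRNA gene, took 15.3, 9.97 and 6.61% of all TPM in DDC libraries and 3.02, 4.01 and 3.15% in untreated ones. Genes of the major urinary protein family took 0.700, 0.0306 and 0.0769% of TPM in DDC libraries, against 14.2, 11.5 and 8.60% in untreated libraries. In these bulk samples, fewer cells of a type and less RNA per cell cannot be told apart.

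Cd63 rose in hepatocytes of DDC-fed mice and was the largest rise among all tested genes. Cd63 encodes a tetraspanin of late endosomes and lysosomes and lies on chromosome 10, 128896231 to 128912822 (GRCm38, protein-coding). It stood at 780.0, 290.5 and 425 in the DDC libraries and 1.39, 0.985 and 1.86 in the untreated libraries. Every DDC library was far above every untreated one, and DDC library 1 was the highest (means 499 ± 253 and 1.41 ± 0.438, SD, n = 3 each; log2 difference 7.59, adjusted p = 3.94e-09). Lcn2, on chromosome 2, 32384637 to 32387739, encodes lipocalin 2, which binds bacterial siderophores and is an acute phase protein of hepatocytes. Lcn2 stood at 1426, 1934 and 2224 in the DDC libraries and 18.3, 12.99 and 66.8 in the untreated libraries, with untreated library 3 highest in its group and still far below every DDC library (log2 difference 6.12, adjusted p = 1.52e-06).

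The other markers fell. Slco1a1, on chromosome 6, 141907281 to 141946962, encodes an organic anion uptake carrier of the sinusoidal membrane. Its level was 0.335, 0.0954 and 0 in the DDC libraries and 458, 478 and 386 in the untreated libraries, so an abundant transcript of untreated hepatocytes was close to 0 in each DDC library (log2 difference -8.60, adjusted p = 2.58e-12). Cyp8b1, on chromosome 9, 121914356 to 121916305, encodes the sterol hydroxylase that sets how much cholic acid is made, and stood at 16.5, 34.97 and 17.3 in the DDC libraries and 514, 205 and 446 in the untreated libraries (log2 difference -4.00, adjusted p = 0.000714). The lowest untreated value, in library 2, was above the highest DDC value, also in library 2.

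**Figure D1:**
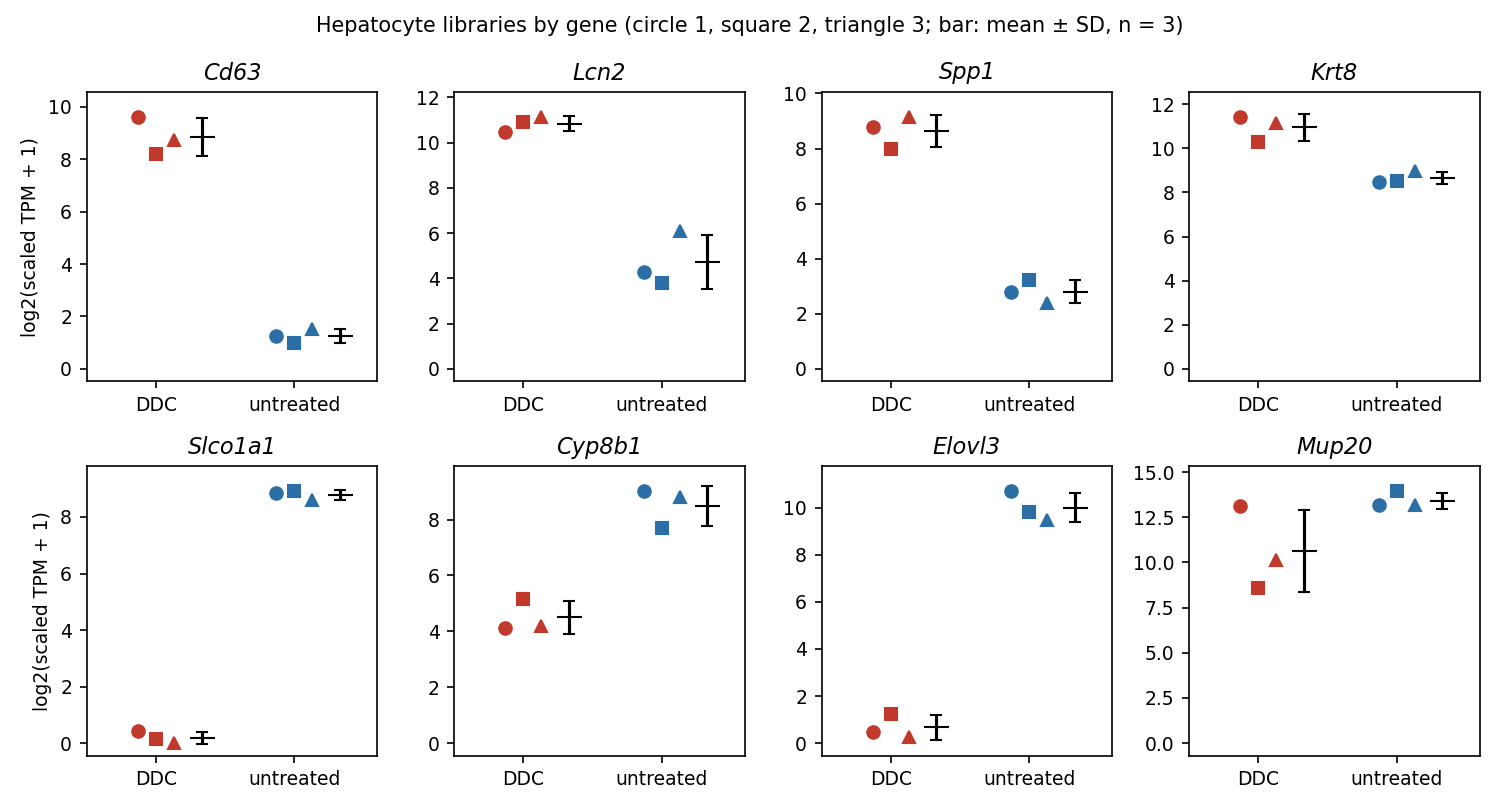
Scaled TPM (log axis, log2(scaled TPM + 1)) of 8 genes in the 3 DDC hepatocyte libraries (left in each panel) and the 3 untreated hepatocyte libraries (right). Circles, squares and triangles are libraries 1, 2 and 3, and bars show the mean ± SD. Cd63, Lcn2, Spp1 and Krt8 are higher in every DDC library than in any untreated one, Slco1a1, Cyp8b1 and Elovl3 are lower, and Mup20 has 1 DDC library close to the untreated ones.

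Other genes were among the 15 largest rises. S100a11, for an S100 calcium-binding protein, had 554, 224 and 446 scaled TPM in DDC libraries and 2.75, 2.83 and 0.632 in untreated ones (log2 difference 7.06, adjusted p = 2.6e-08). Anxa2, for a membrane-binding annexin, had 380.4, 86.1 and 234 in DDC libraries and 0.357, 2.21 and 1.29 in untreated ones (log2 difference 6.53, adjusted p = 5.89e-07). Slpi, for the secretory leukocyte protease inhibitor, had 544, 154 and 365 in DDC libraries and 1.76, 2.298 and 2.19 in untreated ones (log2 difference 6.68, adjusted p = 3.12e-07). In these 3 genes DDC library 2 was the lowest of its group and still far above any untreated library.

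Nid1, the gene of the basement membrane protein nidogen 1, was at 96.4, 145 and 105 in DDC libraries and 0.311, 0.235 and 0.223 in untreated ones (log2 difference 6.51, adjusted p = 1.56e-09). Cd14, the coreceptor for bacterial lipopolysaccharide, was at 182, 98 and 140.3 in DDC libraries and 0.284, 0.6802 and 1.08 in untreated ones (log2 difference 6.37, adjusted p = 5.84e-09). Mfge8, which encodes a secreted protein that bridges apoptotic cells and phagocytes, was at 265, 169 and 200.5 in DDC libraries and 1.42, 1.36 and 2.16 in untreated ones (log2 difference 6.31, adjusted p = 1.73e-10). These 3 were more even across the DDC libraries, and none overlapped with the untreated group.

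Other members of the 15 largest rises varied more between DDC libraries. Ly6d, a surface protein gene, was at 1132, 103 and 416 in DDC libraries and 0.227, 3.08 and 4.93 in untreated ones (log2 difference 6.89, adjusted p = 0.000147), and Sprr1a, a gene of the squamous cell envelope, at 244, 21.2 and 192 in DDC libraries and 0.185, 0.148 and 0.447 in untreated ones (log2 difference 6.34, adjusted p = 0.00017). Both were lowest in DDC library 2. Sult1e1, the estrogen sulfotransferase gene, went the other way within the group, with 7.22, 509.5 and 616 in DDC libraries and 0.0992, 0.633 and 1.28 in untreated ones (log2 difference 6.42, adjusted p = 0.02). Its call was lost without DDC library 2 (5.48), DDC library 3 (5.34), untreated library 1 (6.15) or untreated library 2 (6.44). Spp1, the gene of the secreted matrix protein osteopontin (chromosome 5, 104435111 to 104441053), was at 440.4, 253 and 563 in the DDC libraries and 5.91, 8.27 and 4.201 in the untreated libraries (log2 difference 5.84, adjusted p = 3.42e-07). Gipc2, for a PDZ domain protein, was at 126, 39.7 and 50.05 in DDC libraries and 0, 0.0789 and 0.0794 in untreated ones (log2 difference 5.93, adjusted p = 1.03e-07). The small RNA genes Snord95, at 214, 35.3 and 136 in DDC libraries, and Mir6358, at 52.1, 90.2 and 43.6, were listed at 0 in each untreated library. In all, 45 of the 917 genes that rose were listed at 0 in each untreated library.

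**Figure D2:**
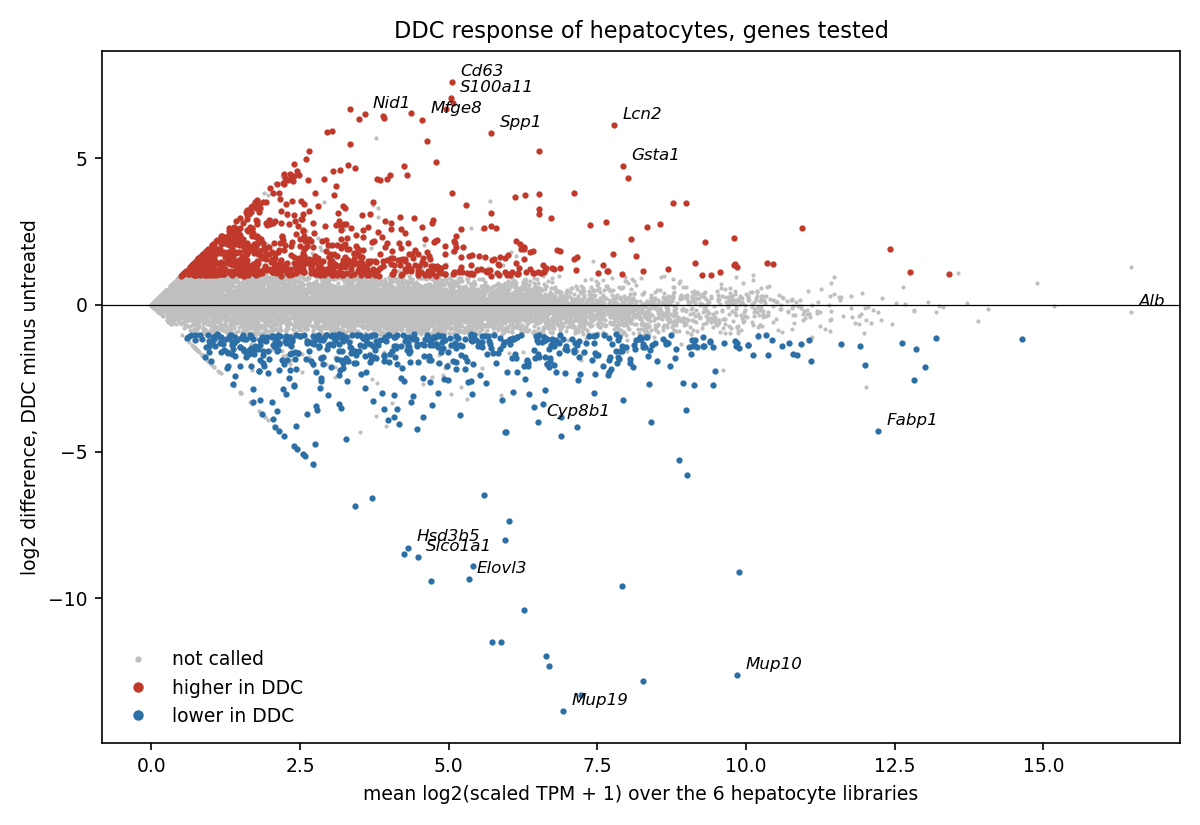
Log2 difference (DDC minus untreated hepatocytes, vertical axis) against the mean log2(scaled TPM + 1) over the 6 hepatocyte libraries (horizontal axis) for 13905 genes. Red points are the 917 genes called higher, blue points the 615 called lower and grey points the others. The largest falls go further from 0 than the largest rises, and most of the largest are in major urinary protein genes.

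The largest falls were mostly in a family of genes for secreted pheromone carriers. Of the 15 largest falls, 11 were in major urinary protein genes, and 19 of the 21 tested members of the family fell. Mup15 stood at 0, 1.78 and 0.204 scaled TPM in DDC libraries and 23913, 14930.0 and 9265 in untreated ones (log2 difference -13.28, adjusted p = 7.51e-08). Mup10 stood at 10.04, 18.2 and 6.42 in DDC libraries and 87369, 73679.8 and 60979 in untreated ones (log2 difference -12.62, adjusted p = 1.96e-06). Mup19, Mup12 and Mup17 were listed at 0 in each DDC library, with untreated levels of 14614, 11546 and 19066, of 4288, 2746 and 1942 and of 650.4, 657 and 711. Mup members are nearly identical in sequence, so the split of reads among them is uncertain, while the family's summed share above does not depend on it.

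Only Mup20 and Mup11 of the tested Mup genes were not called. Mup20, which encodes the male pheromone darcin, stood at 8874, 389.9 and 1139 in DDC libraries and 9109, 15638 and 9183 in untreated ones (log2 difference -2.79, adjusted p = 0.103). DDC library 1 was just below the lowest untreated library, and the other DDC libraries were far lower. Mup11 was listed at 0 in each DDC library and stood at 2848, 30.4 and 0 in the untreated ones, where it varied from library to library. No DDC library exceeded 1 in Gm21320 or Gm2083, protein-coding genes on chromosome 4. In untreated libraries Gm21320 stood at 5342, 7142 and 6416 and Gm2083 at 2950.2, 5092 and 2054. Elovl3 (chromosome 19, 46131897 to 46135694), which encodes a fatty acid elongase, stood at 0.397, 1.38 and 0.201 in the DDC libraries and 1657, 913 and 719 in the untreated libraries (log2 difference -9.34, adjusted p = 1.8e-08).

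Most genes that are more expressed in male than in female mouse liver fell, and part of the female-biased genes rose. Of 24 tested male-biased genes (25 listed), 21 fell and 0 rose, with a median log2 difference of -6.92, against 4.42% of all genes lower and a median of 0.01. Of 20 tested female-biased genes (24 listed), 8 rose and 0 fell, with a median of 1.28, against 6.59% of all genes higher. The male-biased list holds 11 of the Mup genes. Outside that family, Hsd3b5, a steroid dehydrogenase gene, stood at 0.173, 0.227 and 0 in the DDC libraries and 408, 356 and 290.5 in the untreated libraries (log2 difference -8.27, adjusted p = 8.27e-11). Cyp4a12a, a fatty acid hydroxylase gene, stood at 33.4, 0.678 and 1.33 in the DDC libraries and 429.7, 534 and 412 in the untreated libraries (log2 difference -6.48, adjusted p = 0.00129), and DDC library 1 held most of what was left. Cyp7b1, an oxysterol hydroxylase gene, stood at 15.96, 8.43 and 15.2 in the DDC libraries and 497, 313 and 136 in the untreated libraries (log2 difference -4.34, adjusted p = 4.2e-05). Nudt7, a hydrolase gene of peroxisomes, stood at 86.6, 73.1 and 91.3 in the DDC libraries and 1414, 1516 and 1128 in the untreated libraries (log2 difference -3.99, adjusted p = 1.62e-07).

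Among female-biased genes, Atp6v0d2, for a subunit of the vacuolar proton pump, stood at 7.53, 21.4 and 20.1 in the DDC libraries and 0.67, 1.06 and 1.63 in the untreated libraries (log2 difference 2.93, adjusted p = 0.000322). Prom1, for the membrane glycoprotein prominin 1, stood at 7.91, 28.6 and 34.8 in the DDC libraries and 0, 0.1704 and 0.0245 in the untreated libraries (log2 difference 4.32, adjusted p = 6.48e-06). Fmo2, a flavin monooxygenase gene, stood at 7.68, 16.9 and 11.1 in the DDC libraries and 1.23, 4.04 and 1.57 in the untreated libraries (log2 difference 2.01, adjusted p = 0.00125). All 3 were above the untreated range in each DDC library. Sulfotransferase genes of the list split the DDC libraries. Sult2a1, a bile acid sulfotransferase gene, stood at 0, 94.4 and 28.7 in the DDC libraries and 0, 0 and 0.209 in the untreated libraries and was not called (adjusted p = 0.101). In this gene DDC libraries 2 and 3 were high and DDC library 1 was near the untreated level. Sult2a2 was called (log2 difference 4.47, adjusted p = 0.0337), at 1.79, 134 and 34.2 in the DDC libraries and 0.204, 0 and 0 in the untreated libraries, and lost the call without DDC library 2 (3.22), DDC library 3 (4.19), untreated library 1 (4.56), untreated library 2 (4.43) or untreated library 3 (4.43). Sult2a genes are close paralogs, so the split between them is uncertain. Xist, which is expressed from the inactive X chromosome, was at most 0.0171 scaled TPM in the 6 libraries, and 4 Y-linked genes summed to 119, 128 and 122 in DDC libraries and 129, 88.3 and 131 in untreated ones.

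The growth hormone axis was measured through its receptor, its signal transducers and its targets. Ghr, the growth hormone receptor gene, stood at 180.2, 161 and 188 in the DDC libraries and 642, 615 and 537 in the untreated libraries (log2 difference -1.75, adjusted p = 5.61e-05). Prlr, the related prolactin receptor gene, stood at 42.1, 80.97 and 79.3 in the DDC libraries and 149, 166 and 130.0 in the untreated libraries (log2 difference -1.18, adjusted p = 0.0379). Both receptors were lower in each DDC library than in any untreated one. The kinase and transcription factor genes downstream were not called. Jak2 stood at 8.88, 12.6 and 9.56 in the DDC libraries and 7.93, 8.73 and 7.17 in the untreated libraries (log2 difference 0.33, adjusted p = 0.0598). Stat5b stood at 32.1, 27.7 and 29.99 in the DDC libraries and 43.3, 39.3 and 42.9 in the untreated libraries (log2 difference -0.47, adjusted p = 0.00585), a difference below the size asked for a call. The groups of Jak2 did not overlap, and neither did those of Stat5b. Of the hormone's products, Igf1, the gene of insulin-like growth factor 1, stood at 95.7, 127 and 120.2 in the DDC libraries and 274, 262 and 180.5 in the untreated libraries (log2 difference -1.04, adjusted p = 0.00674). Igfals, the gene of its carrier subunit in blood, stood at 49.8, 31.6 and 42.3 in the DDC libraries and 196, 176 and 98.2 in the untreated libraries (log2 difference -1.87, adjusted p = 0.000897). The Prlr call was lost without DDC library 1 (-0.87), untreated library 1 (-1.17), untreated library 2 (-1.09) or untreated library 3 (-1.27), the Igf1 call without DDC library 1 (-0.92), untreated library 1 (-0.93) or untreated library 2 (-0.96), and both calls in TPM as deposited (-0.91 and -0.77) and after quantile normalization (-0.89 and -0.69).

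Regulators in the list moved in both directions. Bcl6, a repressor that male livers express more and that shares sites with STAT5, stood at 4.28, 2.18 and 3.63 in the DDC libraries and 77.96, 23.9 and 34.6 in the untreated libraries (log2 difference -3.27, adjusted p = 3.26e-05). Cish, a feedback inhibitor of cytokine receptors that STAT5 induces, stood at 12.2, 15.5 and 10.7 in the DDC libraries and 1.31, 3.39 and 1.69 in the untreated libraries (log2 difference 2.18, adjusted p = 3.53e-05). Egfr, the epidermal growth factor receptor gene, stood at 46.3, 83.3 and 52.9 in the DDC libraries and 313, 524 and 264 in the untreated libraries (log2 difference -2.56, adjusted p = 7.94e-05). None of the 3 overlapped between the groups. In all, 6 of 14 tested genes of the axis fell and 1 rose (median -0.84).

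The promoters of Cish and of Socs3, a second feedback inhibitor that is described with the acute phase genes, are shown because both genes rose and both windows hold the letters that STAT factors bind. Each window covers 250 bases before to 50 after the gene's start, from RefSeq on GRCm38.p6, and capitals mark matches to TTCNNNGAA, which reads the same on both strands. The Cish window (chr9:107296409-107296708, plus strand) holds 2 matches and the Socs3 window (chr11:117969317-117969616, minus strand) holds 1.
Cish promoter: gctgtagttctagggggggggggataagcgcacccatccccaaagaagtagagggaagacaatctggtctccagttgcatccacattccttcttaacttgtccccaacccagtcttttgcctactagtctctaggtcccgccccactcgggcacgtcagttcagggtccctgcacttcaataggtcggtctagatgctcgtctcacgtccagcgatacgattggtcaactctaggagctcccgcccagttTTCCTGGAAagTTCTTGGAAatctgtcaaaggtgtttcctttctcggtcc
Socs3 promoter: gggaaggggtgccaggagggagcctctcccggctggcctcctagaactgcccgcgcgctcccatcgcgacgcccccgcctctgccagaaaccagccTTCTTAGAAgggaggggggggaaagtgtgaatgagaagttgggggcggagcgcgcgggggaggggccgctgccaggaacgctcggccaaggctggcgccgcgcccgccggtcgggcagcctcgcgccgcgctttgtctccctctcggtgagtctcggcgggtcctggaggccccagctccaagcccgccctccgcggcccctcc
Of 10618 tested genes with a RefSeq window, 748 (7.04%) held this motif. It was in 52 of 667 windows of genes that rose (7.80%) and 31 of 457 of genes that fell (6.78%), both close to the share of all windows. It was in 6 of 19 windows of acute phase genes (31.6%) and in 0 of 17 of male-biased genes. Of the 6 acute phase genes, Socs3 and Steap4 rose, and Itih4, Apcs, Fga and Fgb were not called. Windows of the risen acute phase genes Lcn2, Orm2, Orm3 and Cp held no match. A match describes letters in a window and does not show that a factor binds there.

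Of 8 tested genes of heme synthesis 2 fell (25.0%) and 0 rose, against 4.42% of all genes lower. Their median was -0.29, or -0.18 without DDC library 2. Fech, the gene of ferrochelatase itself, stood at 105, 116.8 and 114 in the DDC libraries and 118, 121 and 113 in the untreated libraries, and the groups overlapped (log2 difference -0.07, adjusted p = 0.704, or 0.19 in TPM as deposited and 0.09 after quantile normalization). Alas1, which encodes the first and rate-limiting enzyme of the pathway in liver, stood at 258, 414 and 463 in the DDC libraries and 144, 348 and 179.9 in the untreated libraries and also overlapped (log2 difference 0.82, adjusted p = 0.137). The falls were in Cpox, for coproporphyrinogen oxidase, at 66.4, 58.8 and 73.3 in the DDC libraries and 133, 140.0 and 148 in the untreated libraries (log2 difference -1.08, adjusted p = 3.72e-05). Ppox, for protoporphyrinogen oxidase, stood at 19.3, 13.1 and 15.5 in the DDC libraries and 39.3, 39.5 and 35.9 in the untreated libraries (log2 difference -1.22, adjusted p = 6.14e-05). In both genes all DDC libraries were below all untreated ones. The fall of Cpox was close to the size asked for a call, and without DDC library 2 (-1.0), in TPM as deposited (-0.81) or after quantile normalization (-0.81) it was no longer called. Ppox was also no longer called in TPM as deposited (-0.95).

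Heme breakdown and iron genes had single members that moved. Hmox1, for the enzyme that opens the heme ring, stood at 83.9, 10.49 and 27.5 in the DDC libraries and 10.1, 5.01 and 5.83 in the untreated libraries (log2 difference 1.98, adjusted p = 0.0186). DDC library 1 was the highest by far, the log2 difference was 1.24 without it and 2.68 without DDC library 2, and the call was lost without untreated library 2 (1.80) or untreated library 3 (1.89). Slc48a1, for a heme transporter of lysosomal membranes, stood at 109, 63.5 and 76.9 in the DDC libraries and 35.3, 38.3 and 38.6 in the untreated libraries (log2 difference 1.1, adjusted p = 0.000311), and its call was lost without DDC library 1 (0.89). Hamp, for hepcidin, the hormone that lowers iron export, stood at 5207, 13189.7 and 17852 in the DDC libraries and 3866, 3935 and 1506 in the untreated libraries (log2 difference 1.91, adjusted p = 0.0467), and its call was lost without DDC library 2 (1.76), DDC library 3 (1.54), untreated library 1 (2.14), untreated library 2 (2.15) or untreated library 3 (1.46). In these genes the DDC values spread more than the untreated ones, and no DDC library fell below an untreated one. Tfrc, for the transferrin receptor, stood at 17, 10.9 and 7.75 in the DDC libraries and 32.3, 26.2 and 39.7 in the untreated libraries and fell (log2 difference -1.43, adjusted p = 0.000998). Alas2, the red cell form of the first heme enzyme, stood at 20.3, 9.87 and 12.9 in the DDC libraries and 137, 112 and 111 in the untreated libraries and fell (log2 difference -3.02, adjusted p = 5.42e-05). Of 3 tested red cell markers (8 listed) Alas2 was the 1 called. Hba-a1, a globin gene, stood at 4.18, 5.695 and 2.75 in the DDC libraries and 0, 1.81 and 2.601 in the untreated libraries (log2 difference 1.23, adjusted p = 0.1). Hbb-bt, another globin gene, stood at 1.54, 0 and 1.03 in the DDC libraries and 0.263, 0.375 and 0.635 in the untreated libraries (log2 difference 0.29, adjusted p = 0.691). Both were low, and neither was called. Hba-a2, Hbb-bs and Slc4a1 were listed at 0 in all 6 libraries.

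Bile acid synthesis genes were lower on balance, with 5 of 15 lower, 1 higher and a median of -0.86. Besides Cyp8b1 and Cyp7b1, Hsd3b7, for the enzyme of the second step of synthesis, stood at 383, 229.6 and 373 in the DDC libraries and 894, 745 and 957 in the untreated libraries (log2 difference -1.42, adjusted p = 0.000408). Scp2, for a sterol carrier and thiolase of peroxisomes, stood at 2243, 1567 and 2153 in the DDC libraries and 5306, 4807 and 4572 in the untreated libraries (log2 difference -1.31, adjusted p = 0.0013, or -0.64 and not called after quantile normalization). Neither gene overlapped between the groups. Cyp7a1, the rate-limiting enzyme gene of the classic pathway, was not called, at 65.7, 248 and 113 in the DDC libraries and 34.5, 24.01 and 50.4 in the untreated libraries (log2 difference 1.79, adjusted p = 0.0851). Its DDC values were all above the untreated ones, and DDC library 2 was the highest. Cyp27a1, which opens the alternative pathway, stood at 242, 497 and 433 in the DDC libraries and 742, 671 and 715 in the untreated libraries and was not called (log2 difference -0.92, adjusted p = 0.132). Among the receptors that sense bile acids and drugs, 1 of 12 tested fell and 0 rose. It was Nr0b2, the repressor SHP that bile acids induce through FXR, at 13.3, 20.5 and 68.9 in the DDC libraries and 100.2, 93.98 and 73.1 in the untreated libraries (log2 difference -1.68, adjusted p = 0.0104), with DDC library 3 close to the untreated values. Nr1h4, the gene of FXR, stood at 91, 89.6 and 90.5 in the DDC libraries and 166, 138 and 134 in the untreated libraries, a log2 difference of -0.68 below the size asked for a call.

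Most carriers that take up bile acids and drugs from blood were lower, and 4 genes of export carriers were higher. Of 12 tested uptake carriers 7 fell and 1 rose (median -1.35). Slco1b2, for a main organic anion carrier, stood at 419, 264 and 386 in the DDC libraries and 880.2, 1049.8 and 909 in the untreated libraries (log2 difference -1.43, adjusted p = 0.00102). Slc22a30 stood at 41.2, 20.3 and 28.1 in the DDC libraries and 344, 326 and 266 in the untreated libraries (log2 difference -3.39, adjusted p = 1.31e-05). Slc22a28 stood at 1.004, 0.125 and 1.13 in the DDC libraries and 23.7, 22.7 and 17.8 in the untreated libraries (log2 difference -3.72, adjusted p = 1.83e-07). Slc22a30 and Slc22a28 belong to the organic ion carrier family. These 3 were lower in each DDC library than in any untreated one. Slc10a1, for the sodium-dependent bile acid carrier NTCP, was not called at 130.5, 524 and 399 in the DDC libraries and 737, 722 and 836 in the untreated libraries (log2 difference -1.34, adjusted p = 0.181), and DDC library 1 was the lowest. The 1 rise was Slc22a27, a female-biased member, at 1.73, 16.4 and 9.66 in the DDC libraries and 0.124, 0.261 and 0.393 in the untreated libraries (log2 difference 2.67, adjusted p = 0.0115).

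Of 17 tested export carriers 4 rose and 1 fell (median 0.15). With 1 library left out the median was lowest without DDC library 1 or 2 (0.06 each) and highest without DDC library 3 (0.33), and it was 0.26 without untreated library 2 and 0.09 without untreated library 3. Slc51b, for a subunit of the basolateral bile acid exporter, stood at 40.6, 84.7 and 88.4 in the DDC libraries and 2.098, 2.01 and 3.71 in the untreated libraries (log2 difference 4.28, adjusted p = 3.53e-05). Abcc4, for a basolateral pump of organic anions, stood at 27.6, 15.8 and 13.6 in the DDC libraries and 0.677, 0.948 and 1.72 in the untreated libraries (log2 difference 3.21, adjusted p = 9.6e-07). Abcb1a, for a drug efflux pump, stood at 13.98, 21.8 and 7.36 in the DDC libraries and 0.967, 1.24 and 2.12 in the untreated libraries (log2 difference 2.57, adjusted p = 0.000165). Abcc5 stood at 6.03, 4.08 and 4.41 in the DDC libraries and 0.198, 0.503 and 0.491 in the untreated libraries (log2 difference 2.06, adjusted p = 3.07e-06). In each of these 4 genes every DDC library was above every untreated one. Abcb11, for the canalicular bile salt export pump, was not called, at 261, 247 and 242 in the DDC libraries and 452, 464 and 448 in the untreated libraries (log2 difference -0.86, adjusted p = 0.00913). Abcc6 was the fall, at 55.3, 47.5 and 41.99 in the DDC libraries and 112, 100.9 and 95.6 in the untreated libraries (log2 difference -1.08, adjusted p = 0.00325), and it was no longer called without DDC library 3 (-0.99), in TPM as deposited (-0.81) or after quantile normalization (-0.84).

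Of 37 tested cytochrome P450 genes of families 1 to 3 and their partners (40 listed), 2 rose (5.4%) and 7 fell (18.9%). Over all genes 6.59% rose and 4.42% fell, so only the share of falls was above that of all genes. The median of the list, -0.01, was near that of all genes. It was 0.26 in TPM as deposited, 0.06 after quantile normalization, 0.12 without DDC library 1 and between -0.24 and -0.03 without each of the other 5 hepatocyte libraries. Cyp2b10, a target of the drug receptor CAR, stood at 172, 911 and 876 in the DDC libraries and 24.1, 39.2 and 49.2 in the untreated libraries (log2 difference 3.81, adjusted p = 0.00413). DDC library 1 was the lowest of its group and was still above each untreated library. Falls included Cyp2d40 at 18.3, 17.98 and 18.9 in the DDC libraries and 176, 176 and 201 in the untreated libraries (log2 difference -3.26, adjusted p = 2.33e-06). Cyp2c67 stood at 83.5, 80.97 and 70.3 in the DDC libraries and 698, 832 and 711 in the untreated libraries (log2 difference -3.24, adjusted p = 6.48e-06). Cyp2f2, a periportal enzyme gene, stood at 182, 299.6 and 364 in the DDC libraries and 2163, 1636 and 1668 in the untreated libraries (log2 difference -2.73, adjusted p = 0.00108). In Cyp2d40 and Cyp2c67 the DDC libraries lay close together, and in each of these genes every DDC library was below every untreated one. Cyp2c genes are close paralogs, so levels of single members are uncertain. Cyp2e1, an alcohol-oxidising enzyme of pericentral hepatocytes, stood at 1616, 2919 and 2861 in the DDC libraries and 5893, 7072 and 5956 in the untreated libraries (log2 difference -1.40, adjusted p = 0.0151), and its call was lost without DDC library 1 (-1.12) or untreated library 2 (-1.31) and after quantile normalization (-0.67).

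Conjugating enzymes split by class. Of 23 glutathione transferase genes 7 rose and 2 fell (median 0.15). This median changed sign without DDC library 3 (-0.09) or untreated library 1 (-0.07), and was 0.06 without DDC library 1, 0.28 without DDC library 2, 0.05 without untreated library 2 and 0.47 without untreated library 3. Of 22 glucuronosyltransferases and sulfotransferases 1 rose and 8 fell (median -0.81). Gsta1 stood at 2065, 613 and 1580.1 in the DDC libraries and 30.9, 34.2 and 94.2 in the untreated libraries (log2 difference 4.73, adjusted p = 8.94e-05). Gstm3 stood at 5265, 4515 and 4889.8 in the DDC libraries and 537, 607 and 1522 in the untreated libraries (log2 difference 2.62, adjusted p = 0.00152). Mgst3, a microsomal form, stood at 218, 189 and 259.8 in the DDC libraries and 48.3, 57.9 and 78.8 in the untreated libraries (log2 difference 1.85, adjusted p = 3.4e-05). The DDC libraries were above the untreated ones in all 3 genes. Gstp1, a male-biased form, stood at 5997, 3126 and 4664 in the DDC libraries and 14139, 12394 and 11235 in the untreated libraries and fell (log2 difference -1.5, adjusted p = 0.00156, or -0.73 and not called after quantile normalization). Gsta1 and Gsta2, and the Gstp genes, are near-identical pairs, so their split is uncertain. Sult2a8, a bile acid sulfotransferase gene, stood at 2.77, 2.68 and 3.12 in the DDC libraries and 1094, 908 and 953 in the untreated libraries (log2 difference -7.99, adjusted p = 3.71e-11). Ugt3a1, a glycosyltransferase gene, stood at 12.9, 7.08 and 7.63 in the DDC libraries and 141, 133 and 123 in the untreated libraries (log2 difference -3.75, adjusted p = 6.02e-07).

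NRF2 is the transcription factor that switches on antioxidant genes when electrophiles or oxidants modify its inhibitor KEAP1. Of 25 tested targets 7 rose and 2 fell, with a median of 0.42, against 6.59% of all genes higher and 4.42% lower. Nqo1, for a quinone reductase, stood at 58.1, 76.7 and 107 in the DDC libraries and 10.4, 15.1 and 18.8 in the untreated libraries (log2 difference 2.37, adjusted p = 0.000198). Srxn1, for sulfiredoxin, which repairs oxidised peroxiredoxins, stood at 316, 84.4 and 156 in the DDC libraries and 39.4, 40.3 and 53.5 in the untreated libraries (log2 difference 1.85, adjusted p = 0.0071). Cbr3, a carbonyl reductase gene, stood at 79.2, 3.55 and 9.797 in the DDC libraries and 0.546, 0.174 and 0.703 in the untreated libraries (log2 difference 3.44, adjusted p = 0.00443), high in DDC library 1, and its log2 difference was 2.27 without that library. All 3 were higher in each DDC library than in any untreated one. Gpx2, for a glutathione peroxidase, stood at 5.97, 7.72 and 3.45 in the DDC libraries and 0, 0 and 0.493 in the untreated libraries (log2 difference 2.5, adjusted p = 0.00012). Akr1b7, an aldose reductase relative, stood at 6.42, 47.9 and 42.97 in the DDC libraries and 0.402, 0.481 and 1.86 in the untreated libraries (log2 difference 3.80, adjusted p = 0.00273). Akr1b7 was lowest in DDC library 1, where Srxn1 and Cbr3 were highest. The falls were Me1, for the malic enzyme that makes NADPH and that lipogenic factors also control, at 84.02, 37.02 and 37.3 in the DDC libraries and 154, 225 and 231 in the untreated libraries (log2 difference -2.01, adjusted p = 0.000257). Cat, for catalase, stood at 1681, 1239 and 1357 in the DDC libraries and 3336, 3049.6 and 3368 in the untreated libraries (log2 difference -1.20, adjusted p = 0.00147). Cat was no longer called in TPM as deposited (-0.93) or after quantile normalization (-0.65).

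The promoters of Srxn1 and Me1 are shown because both are taken as NRF2 targets, both hold the antioxidant response element, and the genes moved in opposite directions. Capitals mark matches on either strand to TGACNNNGC, the core of the antioxidant response element, and to TGANTCA, the AP-1 site, which can overlap it. The Srxn1 window (chr2:152105274-152105573, plus strand) holds 1 antioxidant response element and 2 AP-1 sites, and the Me1 window (chr9:86695865-86696164, minus strand) holds an antioxidant response element that overlaps an AP-1 site.
Srxn1 promoter: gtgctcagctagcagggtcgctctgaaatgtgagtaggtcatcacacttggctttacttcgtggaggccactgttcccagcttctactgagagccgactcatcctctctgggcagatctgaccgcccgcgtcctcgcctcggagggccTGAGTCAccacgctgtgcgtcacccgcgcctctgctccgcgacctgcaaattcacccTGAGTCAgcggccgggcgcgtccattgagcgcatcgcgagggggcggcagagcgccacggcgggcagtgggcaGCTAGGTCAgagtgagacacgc
Me1 promoter: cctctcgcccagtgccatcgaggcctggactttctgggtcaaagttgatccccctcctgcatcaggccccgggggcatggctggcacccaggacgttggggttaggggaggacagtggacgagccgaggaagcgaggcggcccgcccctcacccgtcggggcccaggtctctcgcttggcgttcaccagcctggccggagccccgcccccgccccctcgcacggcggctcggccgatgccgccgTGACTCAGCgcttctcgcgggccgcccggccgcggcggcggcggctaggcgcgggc
The antioxidant response element letters were in 1562 of the 10618 windows (14.7%) and in 6 of 23 windows of NRF2 targets (26.1%). They were in 90 of the 667 windows of genes that rose (13.5%) and 62 of the 457 of genes that fell (13.6%). Of the 6 NRF2 targets, Srxn1 rose, Me1 fell, and Gclm, G6pdx, Ugdh and Prdx1 were not called. Windows of the risen targets Nqo1, Pgd, Cbr1, Cbr3, Akr1b7 and Gpx2 held no match. The AP-1 letters were in 546 of all windows (5.14%), in 61 of the 667 of genes that rose (9.15%), in 39 of the 457 of genes that fell (8.53%) and in 4 of the 23 of NRF2 targets (17.4%).

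Acute phase genes did not move as a block, with 8 of 25 higher, 5 lower and a median of 0.48. The median was 0.13 without DDC library 3 and 0.27 without untreated library 2. Besides Lcn2 and Cd14, the risen genes included Orm2, for an acid glycoprotein, at 637, 277 and 442 in the DDC libraries and 62.4, 43.8 and 95.5 in the untreated libraries (log2 difference 2.72, adjusted p = 0.00152). Hp, for haptoglobin, stood at 12344, 16718 and 19113 in the DDC libraries and 7766, 6988 and 8008 in the untreated libraries (log2 difference 1.06, adjusted p = 0.0296). The Hp call was lost without DDC library 2 (1.02), DDC library 3 (0.92), untreated library 1 (1.08), untreated library 2 (1.0) or untreated library 3 (1.1). Cp, for the ferroxidase ceruloplasmin, stood at 1585, 3472 and 2182 in the DDC libraries and 857, 934 and 812 in the untreated libraries (log2 difference 1.40, adjusted p = 0.00213). Socs3, the feedback inhibitor of interleukin-6 signalling, stood at 10.2, 43.1 and 55.03 in the DDC libraries and 1.904, 2.39 and 1.499 in the untreated libraries (log2 difference 3.38, adjusted p = 0.000792), lowest in DDC library 1. In Hp, Cp and Socs3 every DDC library was above every untreated one. Falls included Saa4, a constitutive serum amyloid gene, at 92.9, 74.7 and 98.2 in the DDC libraries and 339, 316 and 319 in the untreated libraries (log2 difference -1.87, adjusted p = 7.96e-05). Crp stood at 409.6, 296 and 416 in the DDC libraries and 892, 945 and 742 in the untreated libraries (log2 difference -1.21, adjusted p = 0.00398), which was no longer called in TPM as deposited (-0.94) or after quantile normalization (-0.88). Serpina3k stood at 2677, 4628 and 5122 in the DDC libraries and 16819.6, 17778 and 17162 in the untreated libraries (log2 difference -2.11, adjusted p = 0.00237), and reads of this gene family can be split among close copies.

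Of 6 tested metallothionein and zinc transporter genes (7 listed) 2 rose and 1 fell (median 0.78), and the rises were in the metallothionein genes, whose products bind zinc and copper. Mt1 stood at 664, 2449.9 and 2986 in the DDC libraries and 66.4, 101.3 and 499 in the untreated libraries (log2 difference 3.49, adjusted p = 0.012). Mt2 stood at 328, 1939 and 2481 in the DDC libraries and 17.97, 29.2 and 337 in the untreated libraries (log2 difference 4.33, adjusted p = 0.022). Untreated library 3 was the highest of its group in both and overlapped with DDC library 1 in Mt2. The Mt1 call was lost without untreated library 1 (2.91), and the Mt2 call without DDC library 2 (3.96), DDC library 3 (3.79), untreated library 1 (3.53) or untreated library 2 (3.86).

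Of 24 tested genes of plasma proteins and apolipoproteins 1 rose (4.17%) and 5 fell (20.8%), against 6.59% and 4.42% of all genes. Their median was -0.31, or 0.06 after quantile normalization and -0.17 without DDC library 1. Alb, for albumin, stood at 50615, 104595 and 108579.6 in the DDC libraries and 102951, 91348 and 104120.3 in the untreated libraries (log2 difference -0.26, adjusted p = 0.813, or 0.01 in TPM as deposited). DDC library 1 was the lowest of the 6. Apoa4, an apolipoprotein of chylomicrons and high density lipoprotein, was the rise, at 1361, 966 and 2307 in the DDC libraries and 124, 99.6 and 180.4 in the untreated libraries (log2 difference 3.46, adjusted p = 3.48e-05). Serpina1a and Serpina1c, copies of the alpha-1-antitrypsin gene whose reads can be split between them, both fell. Serpina1a stood at 1284, 2100.1 and 3016 in the DDC libraries and 9724, 8075 and 7198 in the untreated libraries (log2 difference -2.04, adjusted p = 0.00145). Serpina1c stood at 2103, 3159.5 and 4067 in the DDC libraries and 18910.1, 15909 and 18406 in the untreated libraries (log2 difference -2.56, adjusted p = 9.57e-05). Neither overlapped between the groups. Of 30 complement and coagulation genes 7 fell and 0 rose (median -0.42). C9, of the membrane attack complex, stood at 388, 228 and 393 in the DDC libraries and 1639, 1439 and 1580.2 in the untreated libraries (log2 difference -2.24, adjusted p = 4.37e-05). C8b stood at 148, 142 and 106 in the DDC libraries and 602, 599 and 521 in the untreated libraries (log2 difference -2.12, adjusted p = 0.00109).

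Genes of intermediary metabolism fell in part. Of 26 urea cycle and amino acid breakdown genes 5 fell and 0 rose, with a median of -0.75, which was -0.36 without DDC library 1, -0.48 in TPM as deposited and -0.38 after quantile normalization. Of 16 of gluconeogenesis and glycogen 3 fell and 0 rose (median -0.77), and of 18 of lipogenesis 6 fell and 0 rose (median -0.78). G6pc, for glucose-6-phosphatase, stood at 336, 137 and 159 in the DDC libraries and 1219, 1429 and 1054 in the untreated libraries (log2 difference -2.65, adjusted p = 0.000381). Tdo2, for the first enzyme of tryptophan breakdown, stood at 658, 1234 and 1321 in the DDC libraries and 3569.7, 3051 and 3534 in the untreated libraries (log2 difference -1.72, adjusted p = 0.00674). These falls were in enzymes of glucose release and of amino acid breakdown. Mlxipl, for the carbohydrate-sensing factor ChREBP, stood at 40.4, 42.5 and 35.96 in the DDC libraries and 203, 141 and 141 in the untreated libraries (log2 difference -1.98, adjusted p = 3.91e-06). Acacb, for an acetyl-CoA carboxylase, stood at 16.5, 6.07 and 2.74 in the DDC libraries and 36.1, 65.4 and 39.8 in the untreated libraries (log2 difference -2.59, adjusted p = 0.00182). All 4 were lower in each DDC library than in any untreated one.

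Of 32 genes of fatty acid oxidation and ketogenesis 6 fell and 4 rose (median -0.46). Fabp1, for the liver fatty acid binding protein, stood at 4557, 239 and 1128 in the DDC libraries and 22363, 20386 and 20907 in the untreated libraries (log2 difference -4.30, adjusted p = 0.0146), lowest in DDC library 2 and uneven across the group. Its call was lost without DDC library 2 (-3.22) and after quantile normalization (-3.39). Cd36, for a fatty acid uptake receptor, stood at 132, 135 and 108 in the DDC libraries and 1.81, 6.21 and 33.2 in the untreated libraries (log2 difference 3.82, adjusted p = 0.000847), even across the DDC libraries and uneven across the untreated ones. Of 27 nuclear genes of the mitochondrial respiratory chain, limma called 0 in either direction (median -0.29, or -0.16 without DDC library 1). Of the 27, 10 had an unadjusted p under 0.05, beside 5379 of all 13905 genes.

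No transcription factor gene of the hepatocyte identity list was called. Limma called 0 of 22, with 7 at an unadjusted p under 0.05 and a median of -0.26, or 0.00 in TPM as deposited. Over all 13905 genes, 5379 had an unadjusted p under 0.05 in the same test. Hnf4a stood at 254, 345 and 303 in the DDC libraries and 371, 364 and 336 in the untreated libraries (log2 difference -0.26, adjusted p = 0.408, or 0.01 in TPM as deposited and 0.06 after quantile normalization). The groups overlapped.

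**Figure D3:**
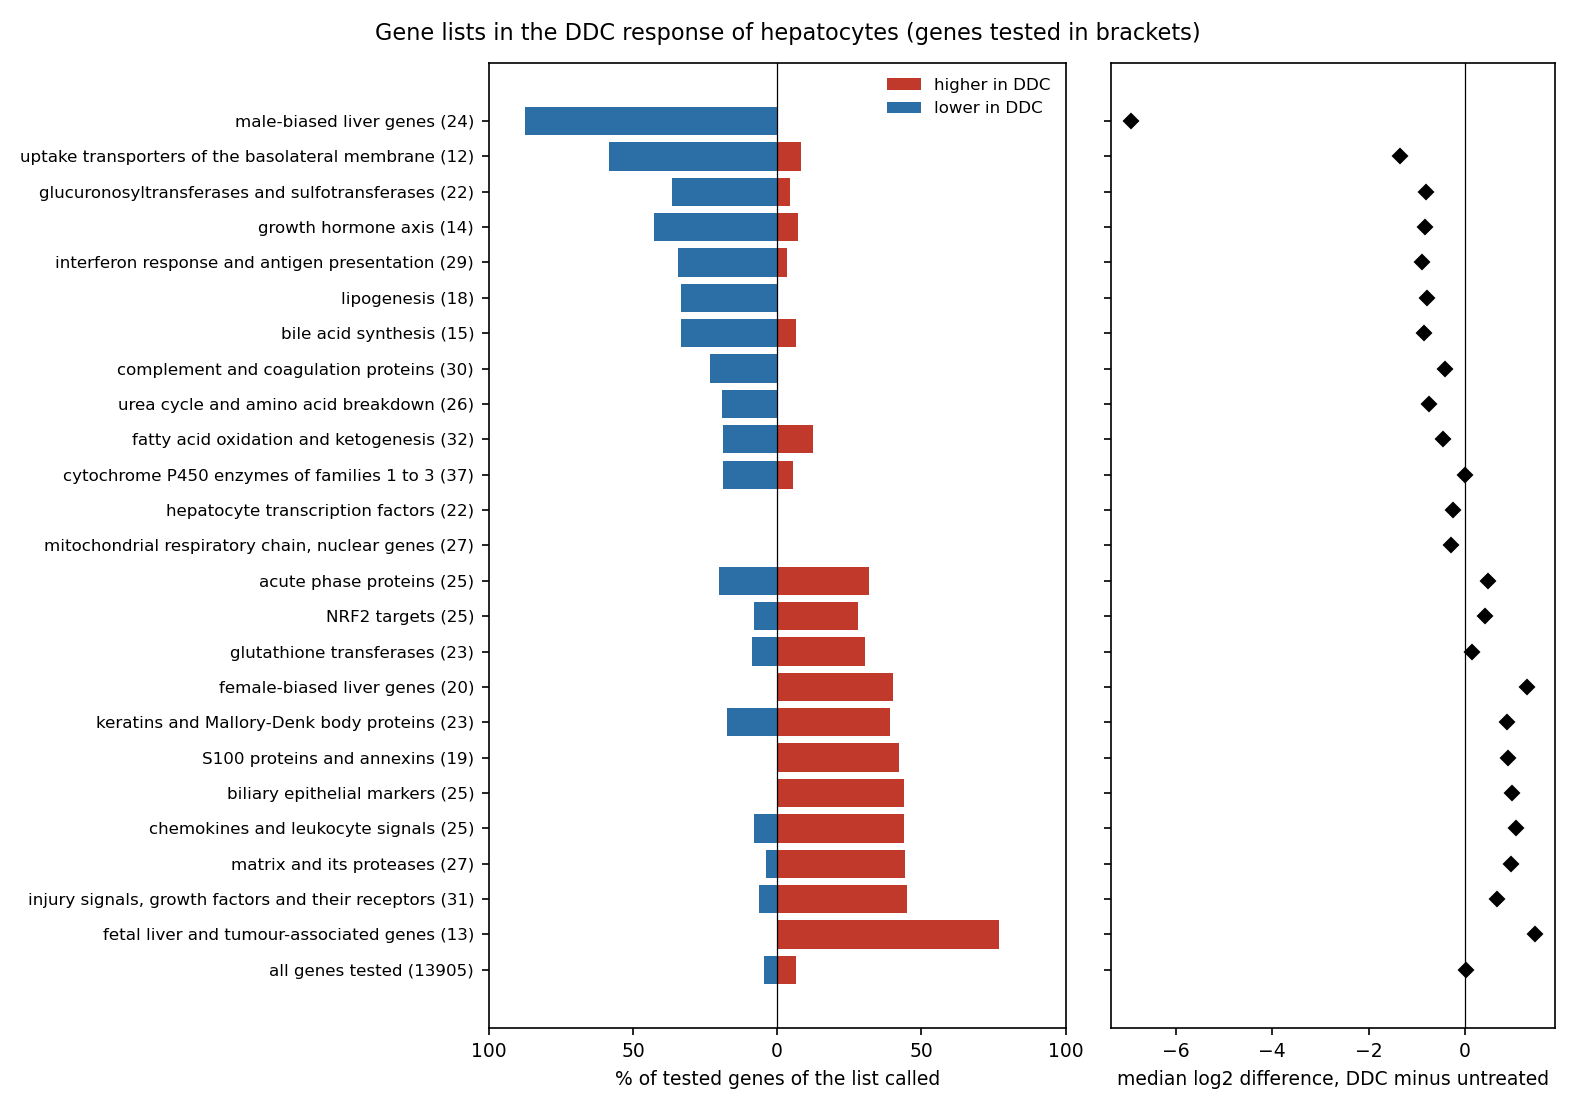
Left, the percentage of the tested members of each gene list called higher (red) and lower (blue) in DDC hepatocytes. The bottom row holds all 13905 genes, with 6.59% higher and 4.42% lower. Right, the median log2 difference of the same members. Fetal liver genes have the largest share higher, at 10 of 13, and male-biased genes the largest share lower, at 21 of 24.

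Krt8 and its partner Krt18, the keratins of hepatocytes, rose. Krt8 (chromosome 15, 101996711 to 102004342) stood at 2728, 1239 and 2279 in the DDC libraries and 358, 361 and 502 in the untreated libraries (log2 difference 2.29, adjusted p = 7.22e-05). Krt18 stood at 1629.9, 925 and 1624 in the DDC libraries and 263, 255 and 405 in the untreated libraries (log2 difference 2.16, adjusted p = 4.82e-05), with every DDC library above every untreated one. These keratins are the main proteins of Mallory-Denk bodies. Of 23 tested genes of keratins and Mallory-Denk body proteins 9 rose and 4 fell (median 0.87). Ubd, for the ubiquitin-like protein FAT10, stood at 258, 42.2 and 68.4 in the DDC libraries and 3.06, 1.86 and 5.63 in the untreated libraries (log2 difference 4.43, adjusted p = 0.000129). Vim, for the intermediate filament protein vimentin, stood at 15.1, 5.78 and 10.8 in the DDC libraries and 0.253, 0.404 and 1.22 in the untreated libraries (log2 difference 2.79, adjusted p = 0.000443). Both were highest in DDC library 1. Heat shock genes of the list fell, Hspa1b at 26.3, 1.44 and 3.19 in the DDC libraries and 60.6, 64.3 and 66.03 in the untreated libraries (log2 difference -3.31, adjusted p = 0.00279). Hspa1a stood at 3.897, 0.2099 and 0.479 in the DDC libraries and 26.8, 22.2 and 16.9 in the untreated libraries (log2 difference -3.46, adjusted p = 0.000436). Hspa1a and Hspa1b are near-identical, so their split is uncertain.

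Some biliary markers rose in DDC hepatocytes, while the levels of several that define ducts stayed near 0. Of 25 markers 11 rose and 0 fell (median 0.97), and all 25 had a positive log2 difference. With each hepatocyte library left out in turn, the log2 difference was 1.28 to 1.36 for Epcam and 2.81 to 3.14 for Cd24a. Sox4, a transcription factor gene of ducts, stood at 10.1, 5.03 and 9.18 in the DDC libraries and 0.0742, 0.0592 and 0 in the untreated libraries (log2 difference 3.08, adjusted p = 6.67e-07). Sox9, another, stood at 11.3, 5.56 and 12.2 in the DDC libraries and 2.96, 2.85 and 2.48 in the untreated libraries (log2 difference 1.44, adjusted p = 0.000451). Bicc1, an RNA-binding protein gene, stood at 17.4, 8.698 and 10.8 in the DDC libraries and 0.116, 0.108 and 0.1403 in the untreated libraries (log2 difference 3.51, adjusted p = 2.99e-07). In all 3 genes DDC library 2 was the lowest of its group and above every untreated library. Cldn4, a tight junction gene, stood at 24.9, 4.695 and 9.75 in DDC libraries and was listed at 0 in each untreated library. Krt19, a keratin of ducts, stood at 1.41, 1.64 and 1.45 in the DDC libraries and 0, 0.141 and 0.722 in the untreated libraries, and its log2 difference of 0.99 was just under the size asked for a call. Of the 25, 8 were below 1 in all 6 libraries, among them Krt7, Muc1, Cftr, Sctr, Cdh6, Grhl2 and Dmbt1.

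The summed biliary marker level moved with these results. It was 605, 369.8 and 709 scaled TPM in DDC hepatocyte libraries, 51.8, 51.9 and 43.6 in untreated hepatocyte libraries and 10914 to 15558 in DDC biliary libraries, and its part in the results was not tested. DDC hepatocytes held 0.1403% of the mean level of DDC biliary cells for Krt7, 0.269% for Krt19, 0.402% for Epcam and 1.14% for Cd24a. The share was 4.85% for Spp1, 7.67% for Sox4 and 9.82% for Sox9. It was 23.9% for S100a11, 29.7% for Cd14, 48.7% for Mfge8, 50.1% for Anxa2, 94.6% for Lcn2 and 119% for Cd63. These 6 genes were named because they are among the largest rises in hepatocytes, and that choice favours a high share. Spp1, also among the largest rises, stood at 4.85%. Their distance from Krt7, Krt19 and Epcam is therefore no test of where the transcripts came from.

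Genes of injury signalling and growth control rose, 14 of 31 tested (36 listed), and 2 fell (median 0.66). Tnfrsf12a, the receptor of the cytokine TWEAK, stood at 153, 135 and 179.9 in the DDC libraries and 17.9, 17.2 and 15.3 in the untreated libraries (log2 difference 3.13, adjusted p = 1.22e-06). Btc, for the EGF receptor ligand betacellulin, stood at 16.8, 28.2 and 19.6 in the DDC libraries and 2.21, 2.35 and 3.84 in the untreated libraries (log2 difference 2.56, adjusted p = 1.46e-06), opposite to the fall of Egfr. Ctgf and Cyr61 are YAP targets that encode secreted matricellular proteins. Ctgf stood at 8.88, 17.2 and 6.68 in the DDC libraries and 0.1397, 0.186 and 0.0374 in the untreated libraries (log2 difference 3.31, adjusted p = 8.86e-07). Cyr61 stood at 86.1, 215 and 172 in the DDC libraries and 28.5, 30.5 and 37.3 in the untreated libraries (log2 difference 2.17, adjusted p = 5.5e-05). DDC library 2 was the highest in both. Gdf15, a stress cytokine gene, stood at 68.4, 19.5 and 56.8 in the DDC libraries and 84.8, 106 and 102 in the untreated libraries and fell (log2 difference -1.17, adjusted p = 0.0367). It lost the call without DDC library 2 (-0.63), untreated library 1 (-1.27), untreated library 2 (-1.11) or untreated library 3 (-1.14).

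Of 25 chemokine and leukocyte signal genes 11 rose and 2 fell (median 1.06). Ccl2, for the chemokine that attracts monocytes, stood at 106, 31.8 and 85.5 in the DDC libraries and 0, 0 and 2.46 in the untreated libraries (log2 difference 5.47, adjusted p = 8.19e-06). Vcam1, for an adhesion molecule that leukocytes bind, stood at 13.2, 9.49 and 16.4 in the DDC libraries and 0.3503, 0.635 and 0.512 in the untreated libraries (log2 difference 3.20, adjusted p = 4.08e-07). Icam1, for another such molecule, stood at 57.8, 30.1 and 37.1 in the DDC libraries and 9.78, 10.2 and 14.3 in the untreated libraries (log2 difference 1.75, adjusted p = 0.000168). In all 3 genes each DDC library was above each untreated one. The falls were Cxcl9, which interferon gamma induces, at 8.08, 2.45 and 4.34 in the DDC libraries and 18.8, 14.8 and 30.6 in the untreated libraries (log2 difference -1.96, adjusted p = 0.0127). Cxcl12 stood at 50.5, 89.6 and 86.6 in the DDC libraries and 314, 198 and 159.7 in the untreated libraries (log2 difference -1.54, adjusted p = 0.00542). The Cxcl9 call was lost without DDC library 2 (-1.62) or untreated library 3 (-1.68).

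Matrix genes and their proteases rose in 12 of 27 tested and fell in 1 (median 0.95), and S100 and annexin genes rose in 8 of 19 (median 0.88). Lgals3, for galectin 3, stood at 47.8, 8.41 and 15.1 in the DDC libraries and 0.177, 0.212 and 0 in the untreated libraries (log2 difference 4.11, adjusted p = 4.37e-05). Mmp14, a membrane-bound metalloproteinase gene, stood at 75.6, 82.3 and 84.1 in the DDC libraries and 25.2, 25.9 and 23.2 in the untreated libraries (log2 difference 1.66, adjusted p = 1.96e-06). Col4a1, for a chain of basement membrane collagen, stood at 40.6, 14.6 and 14.8 in the DDC libraries and 3.64, 6.36 and 3.61 in the untreated libraries (log2 difference 2.01, adjusted p = 0.000598). None of the 3 overlapped between the groups. Lgals1, for galectin 1, stood at 253, 23.4 and 62.3 in the DDC libraries and 11.5, 21.4 and 13.8 in the untreated libraries (log2 difference 2.19, adjusted p = 0.0256), and the call was lost without DDC library 1 (1.29), untreated library 1 (2.01) or untreated library 3 (2.13).

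Genes of fetal liver and liver tumours rose in 10 of 13 tested (17 listed) and fell in 0 (median 1.44). Afp, for alpha-fetoprotein, stood at 4.26, 6.21 and 9.11 in the DDC libraries and 0.601, 0.741 and 1.58 in the untreated libraries (log2 difference 1.91, adjusted p = 0.000224), a low level beside that of Alb. Spink1, for a secreted trypsin inhibitor, stood at 111, 18.4 and 39.8 in the DDC libraries and 1.16, 0.925 and 0.466 in the untreated libraries (log2 difference 4.61, adjusted p = 0.000164). H19, an imprinted noncoding RNA gene, stood at 107, 11.9 and 18.2 in the DDC libraries and 1.33, 1.18 and 4.39 in the untreated libraries (log2 difference 3.31, adjusted p = 0.0089). In Spink1 and H19 DDC library 1 was the highest and DDC library 2 the lowest of the group.

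Of 31 cell cycle and replication genes 3 rose and 0 fell, with a median of 0.66. This median was 0.13, 1.3 and 0.27 without DDC library 1, 2 or 3 and 0.37, 1.07 and 0.38 without untreated library 1, 2 or 3. Ccnd1, for cyclin D1, stood at 82.8, 97.95 and 207 in the DDC libraries and 13.96, 15.1 and 29.1 in the untreated libraries (log2 difference 2.63, adjusted p = 0.000134). Myc stood at 38.8, 36.7 and 23.8 in the DDC libraries and 5.32, 5.26 and 4.24 in the untreated libraries (log2 difference 2.5, adjusted p = 2.84e-06). Both were higher in each DDC library than in any untreated one. Ccne1, for cyclin E1, stood at 3.41, 5.49 and 5.31 in the DDC libraries and 1.06, 1.12 and 1.18 in the untreated libraries (log2 difference 1.41, adjusted p = 5.4e-05). The list's median against the untreated mean was 1.52, -0.75 and 1.13 on the log2 scale in DDC libraries 1, 2 and 3 and -0.37, 0.63 and -0.30 in the untreated ones, so the groups overlapped. Mki67, a proliferation marker, stood at 15.2, 0.221 and 6.67 in the DDC libraries and 0.765, 6.304 and 0.796 in the untreated libraries (log2 difference 0.90, adjusted p = 0.455).

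Interferon response and antigen presentation genes were lower on balance, with 10 of 29 lower, 1 higher and a median of -0.90. Ifit1 stood at 6.18, 1.67 and 3.44 in the DDC libraries and 12.2, 14.1 and 36.9 in the untreated libraries (log2 difference -2.16, adjusted p = 0.0039). Ifit3 stood at 4.23, 2.82 and 4.21 in the DDC libraries and 11.1, 12.7 and 37.4 in the untreated libraries (log2 difference -1.98, adjusted p = 0.00493). In both genes untreated library 3 was well above the other untreated libraries. The 1 rise was H2-Q1, a class I antigen gene of a family of close copies, at 88.3, 85.8 and 94.2 in the DDC libraries and 18.5, 13.7 and 10.9 in the untreated libraries (log2 difference 2.59, adjusted p = 4.66e-06).

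Markers of other liver cells were low in both groups beside hepatocyte-defining markers. The sums of stellate, of endothelial and of lymphocyte and granulocyte markers were higher in each DDC library than in any untreated one. The summed level of 13 Kupffer cell and macrophage markers was 127, 85.9 and 107 scaled TPM in DDC libraries and 49.3, 71.0 and 122 in untreated ones, which overlapped, and Adgre1 and Timd4 were below 1 in all 6. Of 12 tested, 2 rose, Lyz2 (log2 difference 2.09, adjusted p = 0.00218) and Cd68 (log2 difference 1.94, adjusted p = 0.00801), and 1 fell, Clec4f (log2 difference -1.68, adjusted p = 0.00609). Cd68 rested partly on DDC library 1, with a log2 difference of 1.21 without it. Stellate cell and fibroblast markers summed to 13.5, 13.1 and 14.2 in DDC libraries and 1.34, 5.11 and 1.99 in untreated ones, and 7 of 12, Lrat, Des, Pdgfrb and Col1a1 among them, were below 1 in all 6. Endothelial markers summed to 16.1, 15.8 and 17.0 in DDC libraries and 11.6, 13.4 and 11.01 in untreated ones, with Pecam1, Kdr, Cdh5 and 4 others below 1. Lymphocyte and granulocyte markers summed to 71.5, 27.0 and 27.8 in DDC libraries and 17.6, 23.9 and 24.5 in untreated ones. Of 8 tested, 3 rose (37.5%) and 0 fell. S100a8, a granulocyte gene that is also counted in the S100 list, stood at 6.17, 7.12 and 7.34 in DDC libraries and was listed at 0 in each untreated one (adjusted p = 3.95e-05). S100a9, its partner, stood at 2.596, 6.99 and 3.14 in the DDC libraries and 0, 0.294 and 0 in the untreated libraries (log2 difference 2.17, adjusted p = 0.000608). Coro1a, for an actin-binding protein of leukocytes, stood at 2.84, 1.83 and 1.58 in the DDC libraries and 0.0711, 0.397 and 0.229 in the untreated libraries (log2 difference 1.31, adjusted p = 0.000192). In all 3 genes every DDC library was above every untreated one. Of these markers, 11 of 18 were below 1 in all 6 libraries, and Cd2, Cd79b, Ms4a1 and Nkg7 were listed at 0. The part of these cells in the rises of chemokine, matrix and S100 genes was not tested.

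Some genes split the DDC libraries, and those named here were picked because they show the split. How common it was over all genes was not counted. Others differed from it, such as Ccnd1, highest in DDC library 3, and Nid1, highest in DDC library 2. DDC library 1 had the highest values of Ly6d, Sprr1a, Hmox1, Cbr3, S100a6 and Lgals3 and the lowest of Sult1e1, Sult2a1, Cyp2b10, Mt1 and Hamp. DDC library 2 was the lowest of the group in the first set. Over female-biased genes the median against the untreated mean was 0.30, 1.99 and 1.82 on the log2 scale in DDC libraries 1, 2 and 3. Over male-biased genes it was -6.19, -7.70 and -7.76. The labels give no batch or date that would group the libraries.

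**Figure D4:**
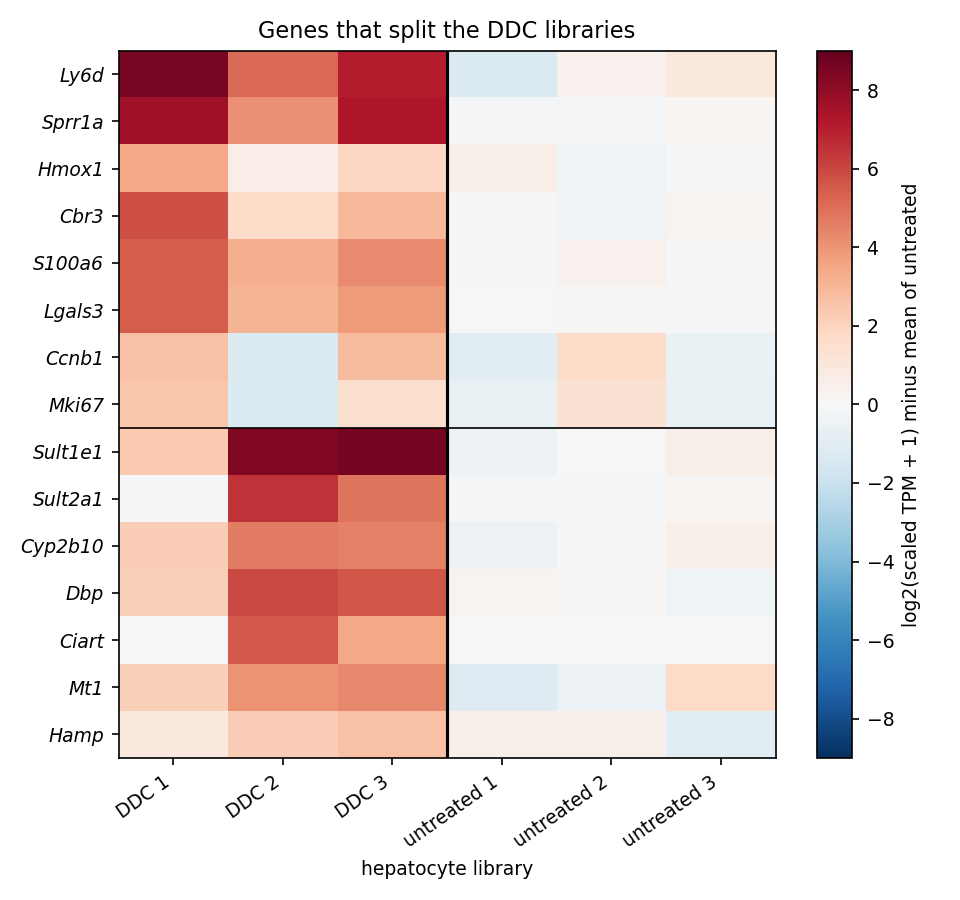
Difference of log2(scaled TPM + 1) from the untreated mean (colour, red higher and blue lower) for 15 genes (vertical) in 3 DDC libraries (left) and 3 untreated libraries (right). The upper genes are highest in DDC library 1 or low in DDC library 2, and the lower genes, such as Sult1e1 and Sult2a1, are low in DDC library 1 and high in DDC libraries 2 and 3. All were picked because they split the DDC libraries.

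The response of hepatocytes was set beside that of biliary cells sorted from the same kinds of mice, through the difference of the 2 responses in the same fit. This difference was positive and called in 687 genes (4.94%) and negative in 481 (3.46%), with libraries of the 2 cell types taken as independent. The labels do not say whether libraries of the same number came from the same mice. Major urinary protein genes took 0.700, 0.0306 and 0.0769% of TPM in DDC hepatocyte libraries 1, 2 and 3. In DDC biliary libraries 1, 2 and 3 they took 0.278, 0.01435 and 0.0179%. With the replicate number added to the fit the counts were 734 and 521. Cd63 stood at 418 ± 90.8 in DDC biliary cells and 291 ± 24.4 in untreated biliary cells (SD, n = 3 each), a log2 difference of 0.50, and the response of hepatocytes exceeded it by 7.09 (adjusted p = 9.41e-07). For Mfge8 the excess was 6.22 (adjusted p = 3.87e-08), for Spp1 6.08 (adjusted p = 1.56e-05), for S100a11 5.46 (adjusted p = 1.78e-05) and for Anxa2 5.56 (adjusted p = 0.000103). Spp1 stood at 8630.3 ± 2521 in DDC and 9856 ± 727 in untreated biliary cells, and Mfge8 at 434 ± 72.5 in DDC and 403 ± 44.6 in untreated ones, so both were already high in biliary cells without DDC. Lcn2 rose in both cell types, and its hepatocyte response was larger by 2.29 (adjusted p = 0.0391).

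For other genes no difference between the responses was called. Cyp8b1 had a log2 difference of -3.82 in biliary cells, where it stood at 4.44 ± 4.03 in DDC and 68.7 ± 32.9 in untreated libraries, and the responses differed by -0.19 (adjusted p = 0.945). For Slpi the difference was 1.22 (adjusted p = 0.228), for Cyp2b10 -0.03 (adjusted p = 0.995) and for Gsta1 0.42 (adjusted p = 0.84). Slco1a1 fell more in hepatocytes on this scale, with a difference of -2.56 (adjusted p = 1.82e-05). Its level in DDC hepatocytes was close to 0, so the size of this difference depends on the 1 added before taking logs. Hepatocyte-defining markers were also present in the biliary libraries, with summed levels of 14110 to 32572 in DDC and 30833 to 40059 in untreated biliary cells, and their part in the responses measured there was not tested.

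**Figure D5:**
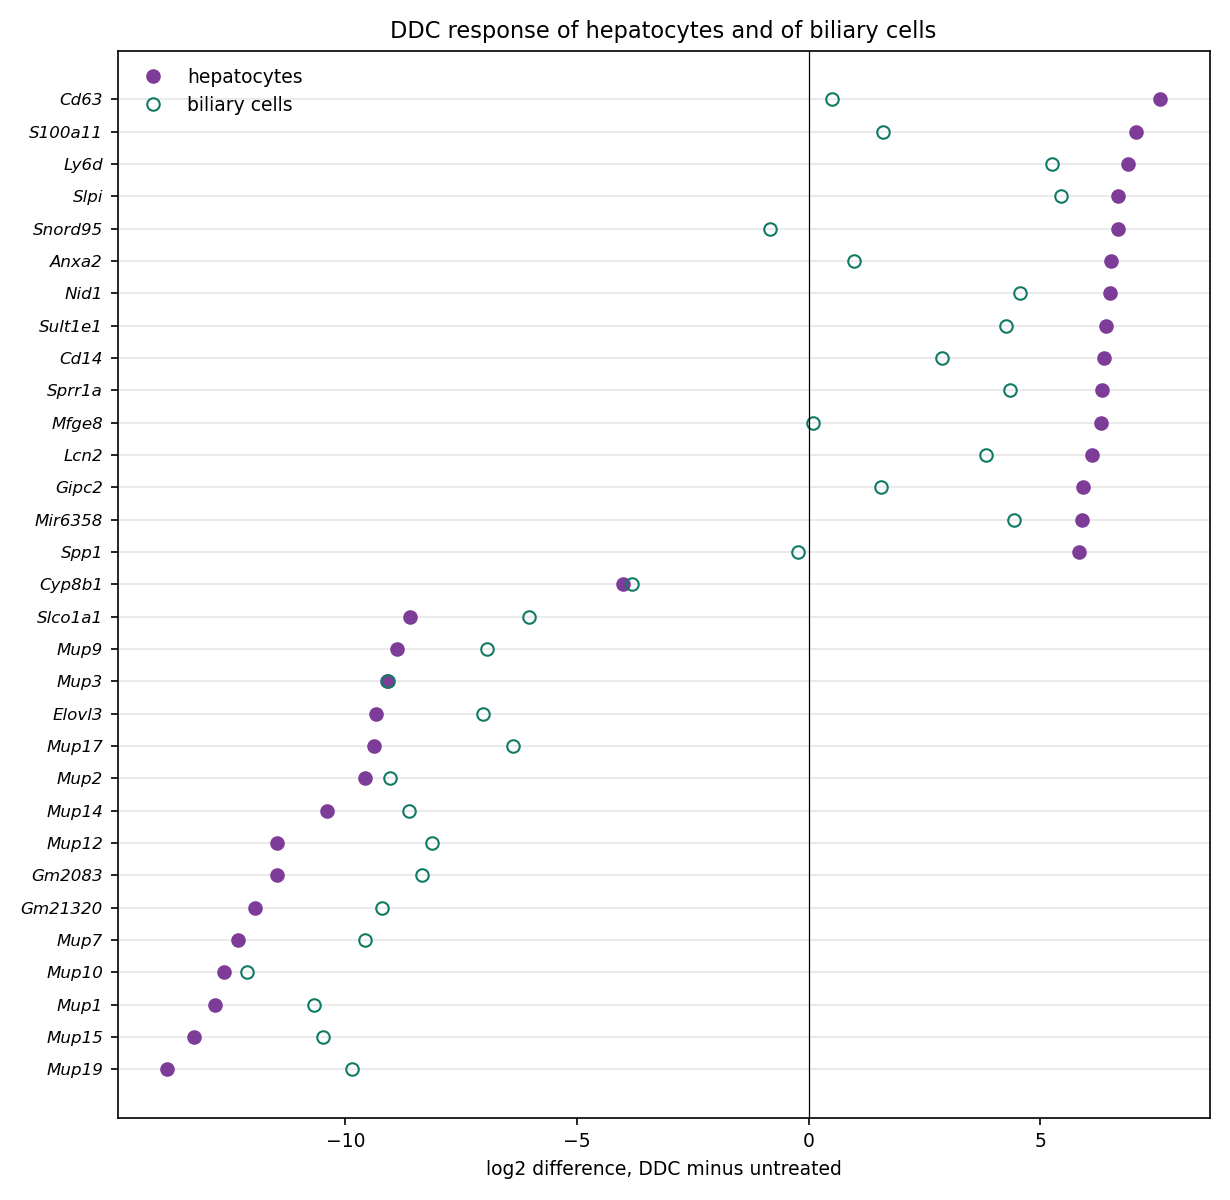
Log2 difference, DDC minus untreated (horizontal axis), in hepatocytes (filled circles) and in biliary cells (open circles) for the 4 marker genes and the 30 genes with the largest rises and falls in hepatocytes (vertical). For Cd63, Mfge8 and Spp1 the filled circle lies far to the right of the open one, while for Cyp8b1 both circles lie close together.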

How the data were processed

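Total RNA of sorted liver cells was prepared with the RNeasy micro kit, per the labels. The authors deposited gene TPM values made with Salmon for mm10, per the submitters' processing notes, in 1 table of 24493 genes and 15 libraries. The Salmon version, the annotation and any trimming are not given in the sources used here. Because TPM is a relative measure, a few abundant transcripts that change lower or raise all others, and no read totals, counting errors or intervals can be had. Libraries were matched to groups by their titles. From the deposited TPM, 13905 genes with at least 1 TPM in at least 3 libraries were kept. Each library was scaled by median-of-ratios (11924 genes), and log2(scaled TPM + 1) was tested with limma 3.58.1 in R 4.3.3, with a mean-variance trend, in 1 fit of the 5 groups with 10 residual degrees of freedom. The difference between cell types was a contrast in the same fit. The values are not counts, so no test made for counts was used.

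The genes named are, by rule, the 4 markers, the 15 largest called changes in each direction and up to 4 members of each list. Further genes were chosen after their values were seen, and a few genes are not reported here. Members and lists were chosen with earlier results of these data known, so they give no independent support. Positions and promoter windows come from RefSeq on GRCm38.p6, the assembly of mm10. On simulated data of 13905 genes, the test for hepatocytes recovered 99 of 100 genes given a log2 change of 2 and 97 of 100 given a change of 3, with 4 false calls. For the difference of responses it recovered 88 and 94 of 100, with 9 false calls. Recovery of genes with low levels was not tested on its own, so these figures cannot be read as holding for such genes. Estimated sample weights were 0.291, 0.392 and 0.811 in DDC hepatocyte libraries 1, 2 and 3 and 1.98, 0.939 and 0.722 in untreated ones. How many false calls the measured data hold was not tested. Replicate numbers did not pair DDC with untreated hepatocytes, and pairing of hepatocyte with biliary libraries by number was not tested. Alternatives changed the scaling, pseudocount, filter, libraries in the fit and call rule, or left out each library. Python 3.11.15, pandas 2.3.3 and matplotlib 3.10.9 were used.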

Additional observations from a re-analysis of the deposited data

Results flagged for a closer look

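The DDC response differed between hepatocytes and biliary cells, by limma's test of the difference itself, in 687 genes toward hepatocytes (4.94% of those tested) and 481 genes toward biliary cells (3.46%). Among the markers, the hepatocyte response minus the biliary response was 7.09 for Cd63, 2.29 for Lcn2 and -2.56 for Slco1a1 on the log2 scale. Among the largest rises in hepatocytes it was 5.46 for S100a11, 5.56 for Anxa2, 1.95 for Nid1, 3.49 for Cd14, 6.22 for Mfge8, 4.37 for Gipc2 and 6.08 for Spp1. For Snord95, listed at 0 in untreated hepatocytes, it was 7.52, a value that depends on the pseudocount. Among the largest falls it was -2.31 for Elovl3, -1.94 for Mup9, -2.73 for Gm21320 and -3.14 for Gm2083. For Mup19, Mup12 and Mup17, listed at 0 in DDC hepatocytes, it was -3.99, -3.34 and -3.01, values that also depend on the pseudocount. So do those of Slco1a1, Elovl3, Gm21320 and Gm2083, which were close to 0 in DDC hepatocytes. The biliary libraries held hepatocyte-defining markers at the summed levels given with the comparison, and their part in these differences was not tested.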

How the results depend on the processing

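Counts of genes moved with the pseudocount, the call rule and the scaling. With a pseudocount of 0.1, 1571 genes were higher and 759 lower, and with 5 it was 394 and 403. By the adjusted p alone it was 2042 and 1856, and in TPM as deposited 1036 and 360. Other settings gave 624 to 987 higher and 424 to 648 lower, and leaving out each of the 6 hepatocyte libraries 820 to 1017 higher and 533 to 692 lower. With the replicate block, 953 were higher and 648 lower. Full profiles of DDC and untreated hepatocyte libraries of the same number correlated at 0.9063, 0.9102 and 0.9265. After the mean of each group was subtracted per gene, what was left correlated at -0.0279, -0.0991 and 0.0795. The numbers were therefore not taken as pairs there. Between hepatocytes and biliary cells such pairs were not tested. The difference of the responses gave 322 and 260 genes with a pseudocount of 5 and 1003 and 777 by the adjusted p alone, and 565 to 729 and 423 to 521 when each hepatocyte library was left out, while no biliary library was. Leaving out structural and small RNA genes, chosen after seeing the data, gave 941 higher and 624 lower. Of 195 called genes that were followed, all kept their direction in each alternative run and 137 kept their call. After quantile normalization 30 lost it, 12 did in TPM as deposited, 15 with a pseudocount of 5, 28 with only the 6 hepatocyte libraries fitted, 8 with no filter and 2 with sample weights. Some of these losses are given with the results. Of the other genes with values in the text, those lost after quantile normalization were Coro1a (0.92), Lgals1, Gdf15, Sult1e1, Sult2a2, Ces3a, Slc48a1 (0.98), Ccne1 (0.92) and Epcam (0.96). In TPM as deposited it was Gdf15 (-0.90). With a pseudocount of 5 they were S100a9 (0.83), Coro1a (0.43), Abcc5 (0.86), Afp (0.93), Ccne1 (0.66), Epcam (0.42), Sox9 (0.89), Clec4f (-0.78) and Sult2a2 (2.72). With only the 6 hepatocyte libraries fitted they were Cbr3, Cd68, Ces3a, Gdf15, H19, Hamp, Hmox1, Hp, Hspa1b, Ifit1, Lgals1, Mt1, Mt2, Nr0b2, Slc22a27, Srxn1, Sult1e1 and Sult2a2, and with no filter Gdf15, Hamp, Hp, Prlr and Sult2a2. The cause of these changes was not tested. 

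In TPM as deposited list medians were -0.03 for heme synthesis, 0.26 for heme breakdown and iron, -0.59 for bile acid synthesis, -1.08 for uptake carriers, 0.41 for export carriers, -0.55 for glucuronosyltransferases and sulfotransferases, -0.04 for plasma proteins, -0.15 for complement, -0.51 for gluconeogenesis, -0.20 for fatty acid oxidation, -0.51 for lipogenesis, -0.57 for growth hormone axis, 0.00 for transcription factors, 0.82 for biliary markers, 0.96 for S100 and annexins and -0.03 for respiratory chain. After quantile normalization list medians were 0.13 for heme breakdown and iron, -0.60 for bile acid synthesis, -0.96 for uptake carriers, -0.65 for glucuronosyltransferases and sulfotransferases, 0.06 for plasma proteins, -0.15 for complement, -0.45 for gluconeogenesis, -0.15 for fatty acid oxidation, -0.48 for lipogenesis, -0.54 for growth hormone axis, -5.74 for male-biased genes, 0.83 for biliary markers and -0.01 for respiratory chain. With a pseudocount of 5 list medians were -0.59 for glucuronosyltransferases and sulfotransferases, -5.74 for male-biased genes, 0.30 for keratins, 0.30 for biliary markers, 0.28 for injury signals, 0.36 for chemokines, 0.27 for matrix, 0.61 for S100 and annexins and 0.92 for fetal liver genes. With a filter of 5 TPM list medians were -0.67 for glucuronosyltransferases and sulfotransferases, -1.04 for growth hormone axis, 1.29 for matrix and 2.08 for fetal liver genes. With a pseudocount of 0.1 list medians were 2.38 for biliary markers, 1.41 for injury signals, 1.66 for chemokines, 2.25 for matrix, 1.6 for S100 and annexins and 2.67 for fetal liver genes. When each hepatocyte library was left out in turn, medians ran from 0.02 to 0.16 for heme breakdown and iron, -1.02 to -0.70 for bile acid synthesis, -0.96 to -0.68 for glucuronosyltransferases and sulfotransferases, -0.87 to -0.62 for growth hormone axis, -7.91 to -6.51 for male-biased genes, 0.83 to 1.02 for biliary markers, 0.53 to 0.88 for injury signals, 0.84 to 1.0 for S100 and annexins and 1.48 to 1.76 for fetal liver genes. Some genes that were not called changed sign: in TPM as deposited Alb (0.01), Clec4g (0.10), Fech (0.19), Hnf4a (0.01), Ndufa4 (0.10) and Stat5a (0.21), with sample weights Clec4g (0.08), after quantile normalization Fech (0.09), Hbb-bt (-0.23), Hk1 (-0.08), Hnf4a (0.06), Lrat (-0.16) and Ndufa4 (0.23). With 1 hepatocyte library left out they were Alb (-0.45 to 0.10), Clec4g (-0.37 to 0.10), Lrat (0.00 to 0.09), Ndufa4 (-0.34 to 0.05) and Stat5a (-0.23 to 0.12).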

Other observations

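Circadian clock genes, a list added after the values were seen, differed between the groups in both directions. Of 17 tested, 4 rose and 3 fell (median 0.43). Dbp, a clock output gene, stood at 6.42, 103 and 82.8 in the DDC libraries and 1.05, 0.8401 and 0.339 in the untreated libraries (log2 difference 4.55, adjusted p = 0.00293), and Nr1d2, a repressor of the clock, at 17.5, 55.05 and 44.2 in the DDC libraries and 7.72, 6.74 and 11.2 in the untreated libraries (log2 difference 1.94, adjusted p = 0.00422). Both were lowest in DDC library 1 within the DDC group. Nfil3, which opposes Dbp at shared sites, stood at 34.3, 11.2 and 20.5 in the DDC libraries and 91.9, 81.1 and 80.9 in the untreated libraries (log2 difference -2.02, adjusted p = 0.000218), and Cry1, another clock repressor, at 12.01, 11.4 and 7.99 in the DDC libraries and 50.5, 35.9 and 22.6 in the untreated libraries (log2 difference -1.65, adjusted p = 0.00202). The labels do not give the time of day at which livers were taken, and its part in these values was not tested.

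Carboxylesterase genes, also added after the values were seen, fell in 7 of 11 tested and rose in 0 (median -1.42). These enzymes hydrolyse esters of lipids and drugs. Ces3b stood at 15.3, 35.1 and 26.1 in the DDC libraries and 625, 607 and 460.4 in the untreated libraries (log2 difference -4.48, adjusted p = 4.2e-05), and Ces1d at 472, 398 and 412 in the DDC libraries and 1254, 1343 and 893 in the untreated libraries (log2 difference -1.42, adjusted p = 0.0022). Ces3a stood at 763, 13.5 and 37.6 in the DDC libraries and 3196, 2903 and 2684 in the untreated libraries (log2 difference -5.28, adjusted p = 0.0252), with DDC library 1 the highest of its group, and its call was lost without DDC library 2 (-4.09), DDC library 3 (-4.80), untreated library 1 (-5.21), untreated library 2 (-5.28) or untreated library 3 (-5.34). Members of this family are close copies, so levels of single genes are uncertain.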
